A study of Mus musculus with 8 samples.

Results

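Vomeronasal type 2 receptor genes, Vmn2r, were taken as all protein-coding autosomal mouse genes whose symbol is Vmn2r followed by digits. The rule found 122 genes, of which 121 had a replication timing score at their midpoint, out of 49214 genes with a score. The missing gene is Vmn2r122, which the RefSeq annotation (GRCm38.p6, the assembly of the mm10 build) places at chr4:3536-11935, where the profiles hold no score. The scores came from mouse embryonic stem cells labelled with BrdU for 2 h and sorted by DNA content into early and late S phase. BrdU-labelled DNA of 40000 cells per fraction was precipitated and sequenced (Repli-seq). The dTAG cells were collected 2 days after treatment with dTAG, a small molecule that brings a tagged protein to the cell's degradation machinery, here YY1. The control cells carry no treatment in their labels. Each group has 2 replicates and each replicate an early and a late sample, so that 8 samples stand behind 4 profiles, dTAG 1, dTAG 2, control 1 and control 2.

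For culture and treatment the labels refer to an earlier publication, so the cell line, the tag, the dose and the extent of YY1 loss are not known here. The stem cell label and the loss of YY1 could not be checked against marker genes, because no RNA or protein was measured. Nothing says whether the replicates came from separate cultures, so the p-values rest on a spread between profiles that may be technical. In the labels of dTAG replicate 1 the sample titles and the named S-phase fractions disagree on which sample is early. Its deposited profile correlated with control 1 at r = 0.993 over 514245 positions and with control 2 at r = 0.966, so its direction was that of the other profiles. The depth behind the scores is unknown, because no read counts were used here.

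The score is a signed number per position of 5 kb, and its formula and log base are not stated. A high score was read as early replication, since all 76 ribosomal protein genes lay above 0 in all 4 profiles. The authors' processing left the replicate numbers on different distributions. Profiles with number 1 averaged 0.20 and those with number 2 averaged -0.20 in both groups, and over all genes replicate 1 exceeded replicate 2 by a median of 0.44 in dTAG and 0.42 in control cells. At the Vmn2r genes that median gap was -0.14 in dTAG and -0.02 in control cells. The sorted values of dTAG 1 equalled those of dTAG 2 with the sign reversed, to within 0.000117. The replicate gap can therefore vary with the level of the score, and late genes differ from all genes in level. Each comparison below is therefore also given within the replicate numbers.

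Vmn2r genes encode class C G protein-coupled receptors with a large extracellular ligand-binding domain. They are expressed in the basal sensory neurons of the vomeronasal organ, where they detect peptide and protein pheromones. Their signal runs through the G protein alpha subunit Gnao1 to the cation channel Trpc2. A basal neuron expresses only a few of the receptors. The family has grown by tandem duplication, so its members lie in arrays of near copies. Replication timing is a property of large domains: genes that are active or open in a cell type tend to replicate early in S phase, and silent gene-poor domains tend to replicate late. YY1 is a zinc finger protein that binds promoters and enhancers at sites with a CCAT core.

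The near copies show in the promoters, taken as the 250 bases before and 50 bases after the annotated start. Some of these windows lie inside the listed gene span, as at Vmn2r4 (chr3:64388561-64415320) and Vmn2r6 (chr3:64537501-64565434). Whether such windows are true promoters was not tested. RefSeq promoters (GRCm38.p6) were found for 115 of the 122 genes. The median Vmn2r promoter had a GC content of 38.0% and 1 CpG, against 52.7% and 7 CpG over all 27025 promoters. No CpG at all occurred in 32 of the 115 promoters (27.8%), against 5.78% of all promoters. Vmn2r29, at the early edge of its array, stood apart with 23 CpG and a GC content of 62.3%. The promoters of 5 genes are printed here to show how the arrays differ in sequence and where the CCAT core lies. Capitals mark CCAT or its reverse complement ATGG, and each sequence is given in the direction of its gene.
Vmn2r4, chr3:64410008-64410307, minus strand, from the chromosome 3 cluster that had the highest differences: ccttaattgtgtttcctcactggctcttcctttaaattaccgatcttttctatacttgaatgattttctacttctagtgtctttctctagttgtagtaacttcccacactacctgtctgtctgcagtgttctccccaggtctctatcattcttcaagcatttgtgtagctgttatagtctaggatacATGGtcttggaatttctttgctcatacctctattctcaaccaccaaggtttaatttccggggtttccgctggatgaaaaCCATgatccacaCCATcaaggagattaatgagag
Vmn2r6, chr3:64559769-64560068, minus strand, from the same cluster: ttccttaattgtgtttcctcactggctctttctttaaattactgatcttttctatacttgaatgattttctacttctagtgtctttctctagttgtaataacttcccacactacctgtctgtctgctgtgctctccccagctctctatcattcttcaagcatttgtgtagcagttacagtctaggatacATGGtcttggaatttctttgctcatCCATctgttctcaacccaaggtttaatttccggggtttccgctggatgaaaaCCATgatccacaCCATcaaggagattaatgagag
Vmn2r32, chr7:7479924-7480223, minus strand, from the chromosome 7 array of 24 genes: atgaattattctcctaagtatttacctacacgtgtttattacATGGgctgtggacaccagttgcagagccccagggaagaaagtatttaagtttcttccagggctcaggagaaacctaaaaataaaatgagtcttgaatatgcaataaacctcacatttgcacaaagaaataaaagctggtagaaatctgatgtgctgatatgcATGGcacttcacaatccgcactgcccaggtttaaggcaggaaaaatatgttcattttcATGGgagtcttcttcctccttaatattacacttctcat
Vmn2r53, chr7:12606495-12606794, minus strand, a receptor linked to male aggression: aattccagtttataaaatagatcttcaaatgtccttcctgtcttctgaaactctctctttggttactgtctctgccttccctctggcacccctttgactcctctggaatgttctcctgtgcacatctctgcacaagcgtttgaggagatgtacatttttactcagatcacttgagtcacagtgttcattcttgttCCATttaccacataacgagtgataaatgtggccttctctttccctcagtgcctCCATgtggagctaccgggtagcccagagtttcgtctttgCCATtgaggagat
Vmn2r116, chr17:23384553-23384852, plus strand, the receptor for the male tear peptide ESP1: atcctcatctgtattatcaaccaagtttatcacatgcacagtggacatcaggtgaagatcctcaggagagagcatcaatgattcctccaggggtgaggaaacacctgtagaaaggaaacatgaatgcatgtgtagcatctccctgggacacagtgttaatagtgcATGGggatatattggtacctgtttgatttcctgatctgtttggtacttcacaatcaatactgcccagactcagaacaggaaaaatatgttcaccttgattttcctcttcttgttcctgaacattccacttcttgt

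Vmn2r4 and Vmn2r6 differed by 15 base changes, insertions or deletions over the 300 bases. Vmn2r6 and Vmn2r7 differed by 2. The promoter of Vmn2r32 was identical to that of Vmn2r49, another gene of the same array. Over all members the nearest other member differed at a median of 28 positions, and for 101 of the 115 promoters it lay in the same cluster. Among the clusters with 3 or more promoters, the chromosome 7 array from Vmn2r29 to Vmn2r52 had the lowest median of these nearest differences, 3. The nearest differences ranged from 0 to 161 there, with 15 of 22 promoters within 15 of another member. The chromosome 17 cluster from Vmn2r111 to Vmn2r117 followed with a median of 5, a range from 2 to 46, and 6 of 7 within 15. Of 6555 pairs, 4 were identical, namely Vmn2r31 with Vmn2r33, Vmn2r32 with Vmn2r49, Vmn2r34 with Vmn2r45 and Vmn2r62 with Vmn2r126.

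The YY1 core was searched on both strands. CCAT occurred in 106 of 115 Vmn2r promoters (92.2%), against 83.3% of all promoters of the same length. The longer GCCAT, which contains CCAT, occurred in 50 (43.5%), against 40.9%, and CCATNTT occurred in 23 (20%), against 16.3%. Clusters differed in the longer forms, with GCCAT in 18 of the 22 promoters of the Vmn2r29 array and in none of the 7 of the Vmn2r111 cluster. TATAAA was found in 27 Vmn2r promoters (23.5%), against 14.2% of all, and in all 8 promoters of the chromosome 6 cluster. These are matches of letters, and binding was not measured. The windows include 50 bases after the start, where coding sequence may begin, and GC content differed between the sets (38.0% against 52.7%). The part of either in these shares was not tested.

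The 122 genes fell into 18 clusters when genes under 1 Mb apart were joined. The largest gap joined was 0.549 Mb, between Vmn2r76 and Vmn2r77, and the smallest gap not joined was 1.719 Mb, between Vmn2r28 and Vmn2r29. Of the scored genes, 114 lay in 11 clusters of 3 or more, and 6 clusters had 1 or 2 genes. Chromosome 7 held 52 of the genes, chromosome 17 held 31, chromosome 5 held 11, chromosome 6 held 9, chromosome 10 held 8, chromosome 3 held 7, and chromosomes 4 and 14 held 2 each. Neighbouring genes share smoothed signal, so the genes of a cluster are not independent measurements.

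As a family the Vmn2r genes replicated late. Their median score was -1.57 in dTAG 1 and -1.41 in dTAG 2, and it was -1.91 in control 1 and -1.45 in control 2. All 49214 genes had medians of 2.75 and 2.35 in the dTAG profiles and 2.76 and 2.35 in the controls. Scores below 0 in all 4 profiles were found for 76 of the 121 Vmn2r genes (62.8%), against 25.4% of all genes and 17.9% of the 21523 protein-coding genes. The other chemoreceptor families were late as well: 153 of 228 autosomal Vmn1r genes (67.1%), which encode the receptors of the apical vomeronasal neurons, and 674 of 1103 autosomal olfactory receptor genes (61.1%) lay below 0 throughout.

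**Figure D1:**
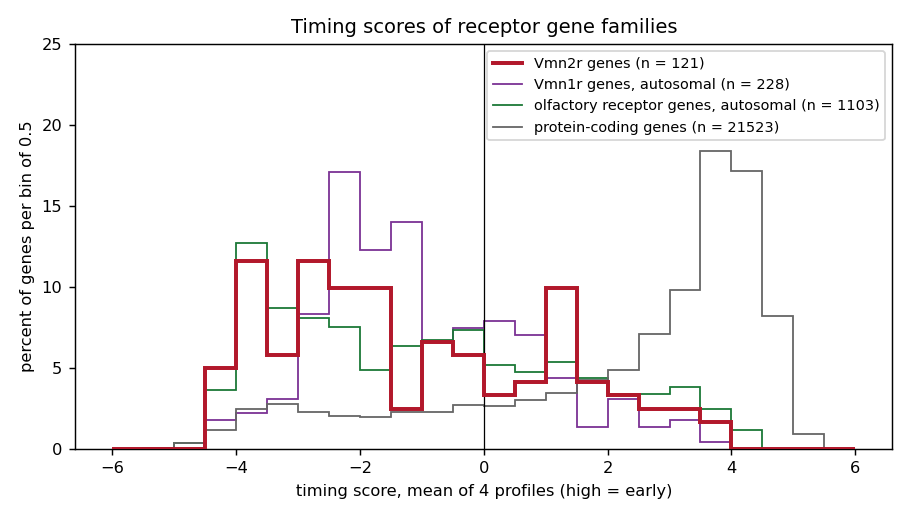
Share of genes per bin of 0.5 score units (vertical axis, percent) against the timing score averaged over the 4 profiles (horizontal axis, high is early), for Vmn2r, autosomal Vmn1r, autosomal olfactory receptor and all protein-coding genes. The receptor families lie mostly below 0, with medians of -1.73 for Vmn2r, -1.36 for Vmn1r and -1.16 for olfactory receptor genes, against 3.25 for protein-coding genes.

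Late scores were concentrated in particular arrays. Mean scores per gene over the 4 profiles reached 3.52 at Vmn2r126 and fell as low as -4.10, and 34 of the 121 genes (28.1%) lay above 0 in all 4 profiles, against 68.3% of all genes. Among the 17 scored clusters, the cluster mean was below 0 in all 4 profiles in 8, above 0 in all 4 in 8, and on both sides of 0 in 1, the chromosome 5 cluster from Vmn2r8 to Vmn2r17. The 3 latest clusters by mean score, from Vmn2r90 to Vmn2r110 on chromosome 17 (-2.99), from Vmn2r65 to Vmn2r79 on chromosome 7 (-2.89) and from Vmn2r29 to Vmn2r52 on chromosome 7 (-2.26), together held 61 of the 121 genes. The clusters around Vmn2r53 and Vmn2r57 on chromosome 7, Vmn2r80 and Vmn2r84 on chromosome 10, and Vmn2r111 on chromosome 17 averaged between 1.41 and 1.83.

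**Figure D2:**
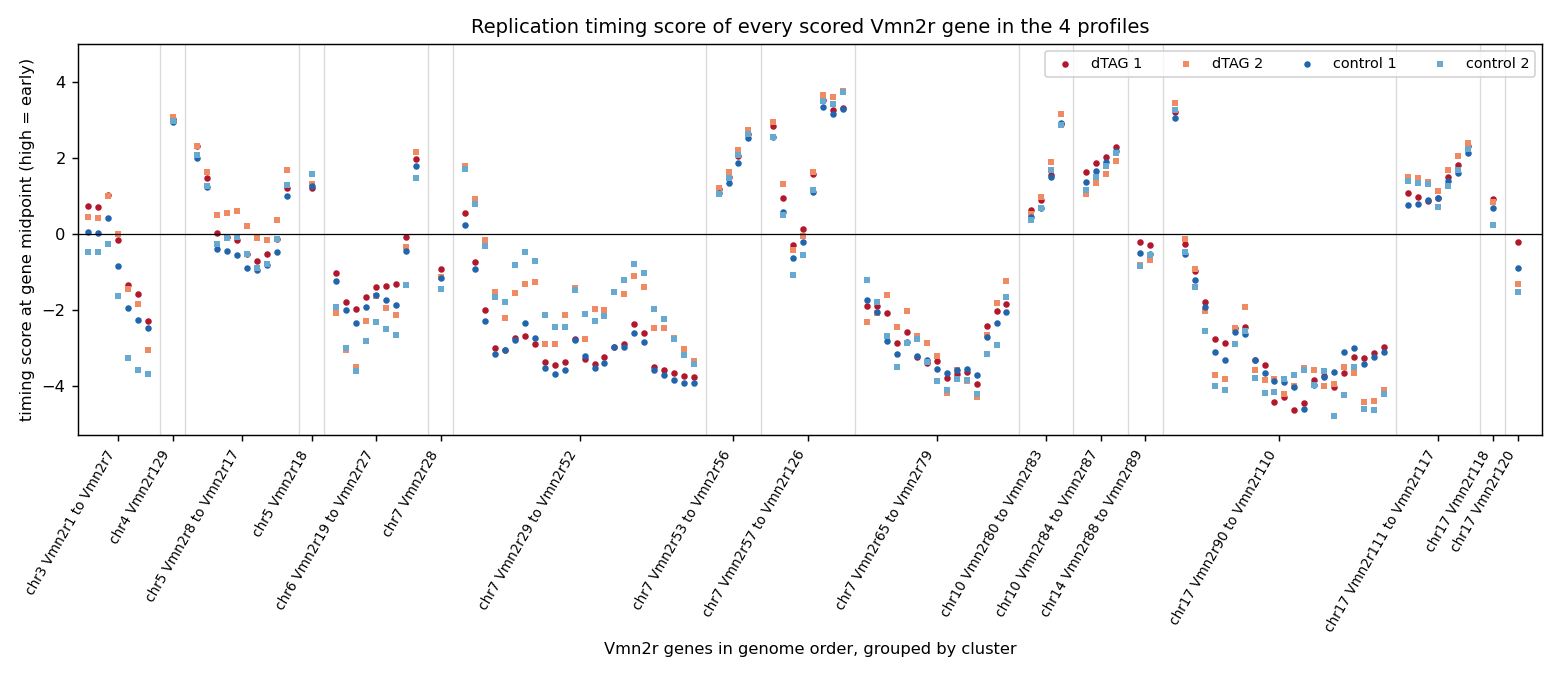
Timing score at the gene midpoint (vertical axis, high is early) of each of the 121 scored Vmn2r genes in genome order, grouped by cluster (horizontal axis). Each gene has 4 points, for dTAG 1, dTAG 2, control 1 and control 2. The slopes within clusters span up to 7.35 score units, and dTAG points lie above control points at all 7 genes of chromosome 3 within each replicate number.

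After dTAG the Vmn2r genes tended to score higher than in control cells, but no single gene passed the test. The median difference, dTAG minus control, was 0.18 over the 121 genes, with 0.19 in replicate 1 and 0.21 in replicate 2, against -0.0019 over all genes. Olfactory receptor genes also had a median of 0.18, with 0.074 in replicate 1 and 0.28 in replicate 2. Vmn1r genes had -0.0040, with 0.11 in replicate 1 and -0.012 in replicate 2. Within both replicate numbers the dTAG score was above the control score at 84 of the 121 genes (69.4%), against 28.3% of all genes, and below it at 11 (9.09%), against 29.6%. The remaining 26 Vmn2r genes had opposite signs in the 2 replicates. The shares above and below were 49.2% and 15.4% for olfactory receptor genes and 40.8% and 25.4% for Vmn1r genes. For Vmn2r pseudogenes, outside the rule, they were 48.4% and 18.75%. Replicate 1 alone had 102 of the 121 genes higher after dTAG, against 52% of all genes, and replicate 2 alone had 92, against 46.8%. Without dTAG 2 the median difference was 0.15, against 0.20 over all genes, and without control 1 it was 0.20 against 0.20, so that in these unbalanced sets of profiles the Vmn2r genes did not stand above all genes.

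A stricter count asked for both dTAG profiles above both control profiles. This held at 44 of the 121 genes (36.4%), against 10.5% of all genes, and the reverse held at 2 (1.65%), against 8.32%. It held at 37 of 228 Vmn1r genes and at 319 of 1103 olfactory receptor genes. Groups overlap more readily where the replicates lie far apart. The median width of the replicate gap, without its sign, was 0.41 in dTAG and 0.45 in control cells at Vmn2r genes, and 0.53 and 0.49 over all genes. With all 4 profiles on one distribution, 25 Vmn2r genes (20.7%) had both dTAG profiles above both controls, against 12.9% of all genes, and 4 had them below, against 13.1%. With each profile centred on its mean over all genes the higher count was 27 (22.3%), against 12.3%.

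Limma, fitted over all 49214 genes with Benjamini-Hochberg adjustment, called none of them at an adjusted p under 0.05 (0% of all genes and 0 of 121 Vmn2r genes). Limma draws each gene's variance toward that of all genes, and this fit leaves the offset between replicate numbers in it. An SE can therefore exceed the spread of a gene's own profiles. At an unadjusted p under 0.05 there were 411 genes (0.835%), among them 2 Vmn2r genes, Vmn2r4 and Vmn2r67. Their differences were 1.17 (SE 0.40) and 0.90 (SE 0.35), with unadjusted limma p-values of 0.0338 and 0.0487 and an adjusted p of 0.9999 each. With the replicate number as a block, 9.33% of all genes had an unadjusted limma p under 0.05, and none was called after adjustment. For a single value, an exact permutation test of 2 against 2 profiles cannot give a two-sided p under 0.333.

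Counted by cluster, the mean difference was positive in both replicates in 13 of 17 clusters, negative in both in 1 and of mixed sign in 3. The median of the 17 cluster differences was 0.19. Over all 4 profiles the chromosome 3 cluster had the highest mean difference, 0.93. Without control 2 it was 0.47, below the Vmn2r29 array (0.68) and the Vmn2r8 cluster (0.55). The clusters are taken in the order of their chromosomes.

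**Figure D3:**
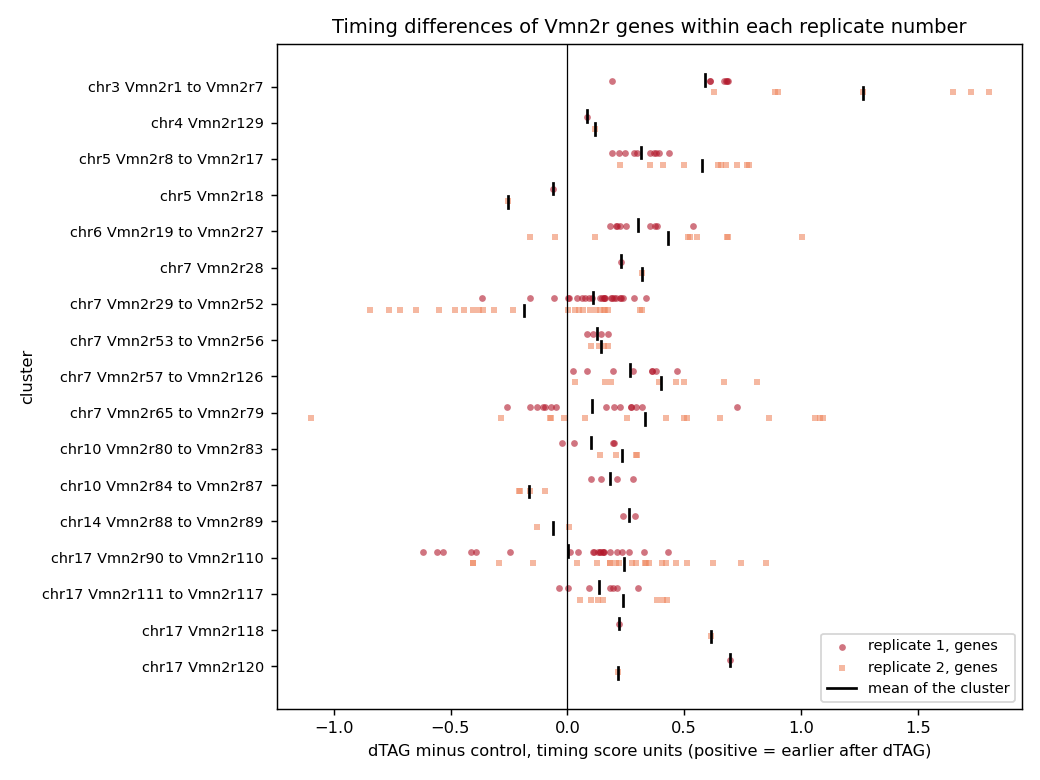
Difference in timing score, dTAG minus control (horizontal axis, score units), of the Vmn2r genes of each of the 17 scored clusters (vertical axis). Circles are genes in replicate 1, squares genes in replicate 2, and black bars the mean of the cluster in that replicate. Both bars lie right of 0 in 13 clusters. The bars of the chromosome 3 cluster lie at 0.59 and 1.27, and in replicate 1 the lone gene Vmn2r120 lies farther right, at 0.70.

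The chromosome 3 cluster, chr3:64078172-64719602, holds Vmn2r1 to Vmn2r7. These are the family C receptors, which unlike other Vmn2r genes are each expressed broadly in basal vomeronasal neurons, beside another receptor. The cluster averaged -0.41 and -0.64 in the dTAG profiles, against -1.0 and -1.91 in the controls, a difference of 0.93 (0.59 in replicate 1 and 1.27 in replicate 2). Every gene of the cluster was higher after dTAG within both replicate numbers, and at 6 of the 7 both dTAG profiles lay above both controls.

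Vmn2r1 scored 0.73 and 0.44 in the dTAG profiles, against 0.06 and -0.46 in the controls. Vmn2r3, the earliest of the cluster, scored 1.02 and 0.99 after dTAG, against 0.41 and -0.27. Neither gene's groups overlapped, and the differences were 0.79 (SE 0.36) and 0.94 (SE 0.38). The greatest differences lay farther along, where the score falls. Vmn2r4 scored -0.15 and 0.01 after dTAG, against -0.83 and -1.64 in control cells. Vmn2r5 scored -1.34 and -1.46 after dTAG, against -1.95 and -3.26, a difference of 1.21 (SE 0.52), the highest of the family over all 4 profiles. Vmn2r6 scored -1.57 and -1.85, against -2.25 and -3.58, a difference of 1.20 (SE 0.53). At all 3 genes control 2 was the lowest profile and the difference was larger in replicate 2 than in replicate 1, where it was 0.69 at Vmn2r4, 0.61 at Vmn2r5 and 0.68 at Vmn2r6. Without control 2 the differences were 0.77 at Vmn2r4, 0.55 at Vmn2r5 and 0.54 at Vmn2r6, below the 0.97 of Vmn2r67 and the 0.95 of Vmn2r29 in the same 3 profiles. At the late end of the cluster, Vmn2r7 scored -2.28 and -3.05 after dTAG, against -2.47 and -3.68, and there the groups overlapped.

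Along the chromosome, both dTAG profiles stayed above both controls over an unbroken stretch of 585 kb, chr3:64020000-64605000, which reached from 58.2 kb before the cluster to between Vmn2r6 and Vmn2r7. The difference peaked at 1.24. In the 500 kb before and after the cluster the mean difference was of the opposite sign, -0.20 and -0.28. Farther out, from the edge of the plotted window at 1324 kb before the middle of the cluster to 879 kb before it, both dTAG profiles again lay above both controls, with a mean difference of 0.50 and a peak of 0.87. The last crossing from positive to negative score inside the cluster lay 313 kb from its start in dTAG 1 and 323 kb in dTAG 2, against 251 kb in control 1, while control 2 was below 0 throughout the cluster. The cluster contains no other protein-coding gene, and 7 Vmn2r pseudogenes. Over the alternatives tried, its mean difference stayed between 0.47 and 1.38.

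**Figure D4:**
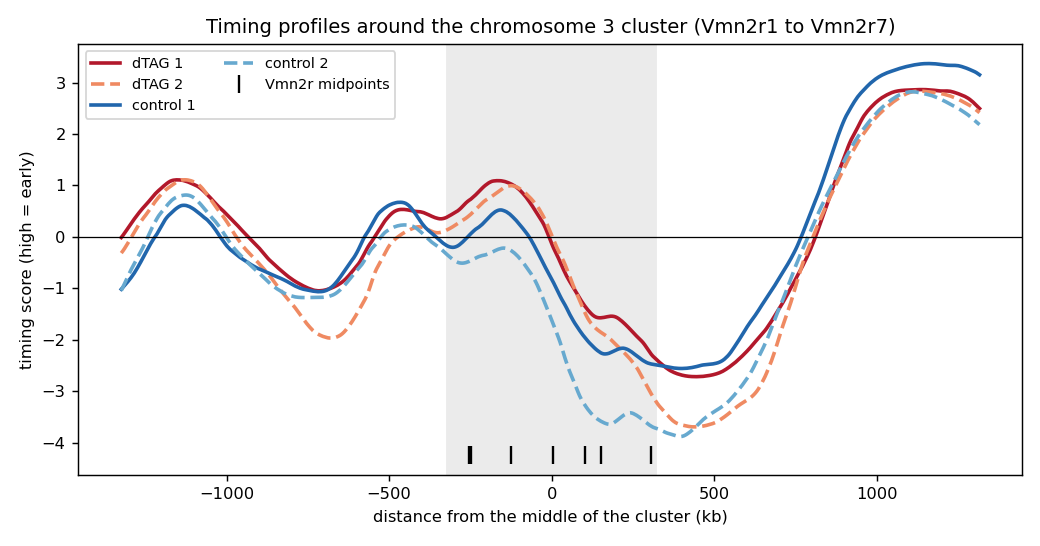
Timing score (vertical axis, high is early) against distance from the middle of the chromosome 3 cluster in kb (horizontal axis) in dTAG 1, dTAG 2, control 1 and control 2. The grey band is the cluster and ticks are gene midpoints. Both dTAG curves run above both control curves over 585 kb at the cluster, with a peak difference of 1.24, and again at the left edge, from 1324 to 879 kb before the middle.

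On chromosome 4 the single scored gene was Vmn2r129, at chr4:156331103-156339499. It was early, with 3.02 and 3.08 in the dTAG profiles and 2.94 and 2.97 in the controls. Its groups did not overlap, though the difference of 0.10 was below its limma SE of 0.31. That SE exceeded the gene's own standard deviations, 0.05 in dTAG and 0.02 in control cells.

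The chromosome 5 cluster from Vmn2r8 to Vmn2r17, chr5:108797193-109453387, formed a valley between early flanks, whose 500 kb averaged 3.98 before and 3.13 after it. The cluster averaged 0.29 and 0.76 in the dTAG profiles, against -0.03 and 0.18 in the controls, a difference of 0.45 (0.32 and 0.57 within the replicates). All 10 genes were higher after dTAG in both replicates, and 7 had groups that did not overlap. Vmn2r8, at the early edge, scored 2.31 and 2.30, against 2.01 and 2.08. Vmn2r14, at the bottom, scored -0.72 and -0.11, against -0.94 and -0.89. The part of the valley below 0 was narrower after dTAG: it ran from 216 to 559 kb in dTAG 1 and from 404 to 517 kb in dTAG 2, counted from the cluster's start, against 137 to 585 kb in control 1 and 137 to 557 kb in control 2. Its mean difference stayed between 0.21 and 0.68 over the alternatives. The lone gene Vmn2r18, on the same chromosome, went the other way, with 1.20 and 1.32 after dTAG against 1.26 and 1.58 in control cells, and its groups overlapped.

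On chromosome 6 the cluster from Vmn2r19 to Vmn2r27, chr6:123308333-124231784, averaged -0.96 and -1.64 in the dTAG profiles, against -1.26 and -2.08 in the controls. The difference was 0.37 (0.30 and 0.43 within the replicates). Its latest gene, Vmn2r21, scored -1.96 and -3.49 after dTAG, against -2.35 and -3.61, so that the replicates lay farther apart than the groups. Vmn2r27, its earliest, scored 1.96 and 2.17, against 1.78 and 1.48, with no overlap. The rise back above 0 lay 742 and 760 kb from the start of the cluster after dTAG, against 773 and 809 kb in control cells. Without control 2 the cluster's mean difference was -0.04, and without dTAG 1 it was 0.02.

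Chromosome 7 carried 5 clusters. The lone Vmn2r28 scored -0.94 and -1.13 in the dTAG profiles, against -1.16 and -1.45 in the controls, without overlap. The array from Vmn2r29 to Vmn2r52, chr7:7212996-10176286, is the longest of the family, with 24 genes and 17 pseudogenes in 2.96 Mb. It averaged -2.86 and -1.71 after dTAG, against -2.97 and -1.52 in control cells, a difference of -0.04 (0.11 in replicate 1 and -0.19 in replicate 2). At none of its 24 genes did the groups separate.

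In that array the replicate numbers differed far more than the groups. Replicate 1 minus replicate 2 averaged -1.15 in dTAG and -1.45 in control cells, while over all genes, which are mostly earlier, its median was 0.44 and 0.42. In the later clusters it averaged -0.13 and 0.10 (Vmn2r65 to Vmn2r79) and 0.15 and 0.39 (Vmn2r90 to Vmn2r110). Vmn2r29, at the early edge, scored 0.56 and 1.80 after dTAG, against 0.22 and 1.70. Vmn2r52, at the late end, scored -3.77 and -3.36, against -3.93 and -3.42. Replicate 2 was thus the earlier profile of its group at both ends, in dTAG and in control cells alike. Leaving out single profiles moved the array's mean difference from -0.76 to 0.68. The array also has the lowest median of promoter differences to the nearest member among clusters with 3 or more promoters. How reads were assigned to its near copies is not given in the sources used here. What part that has in the replicate gap was not tested.

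**Figure D5:**
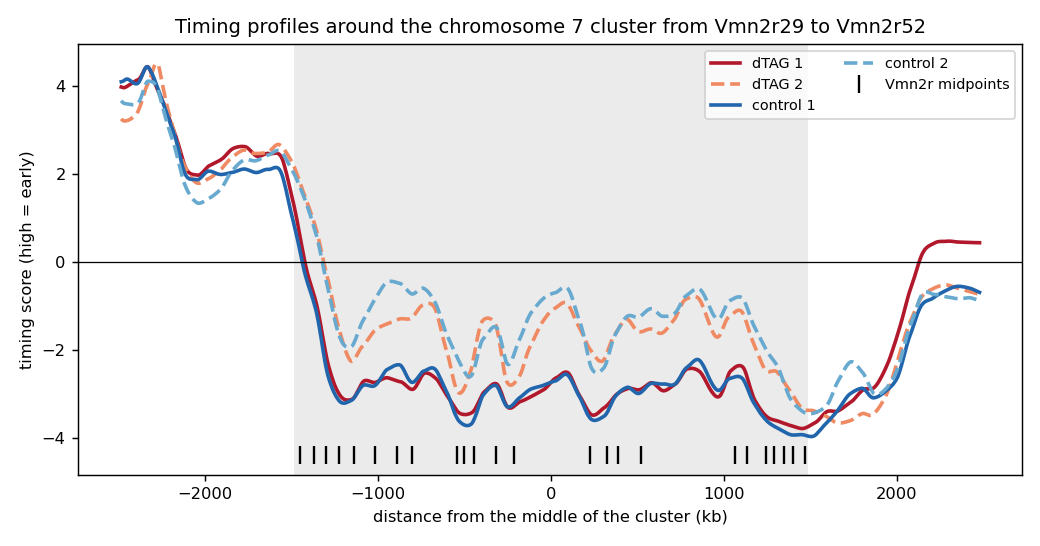
Timing score (vertical axis, high is early) against distance from the middle of the chromosome 7 array from Vmn2r29 to Vmn2r52 in kb (horizontal axis), in dTAG 1, dTAG 2, control 1 and control 2. The curves pair by replicate number and not by group inside the grey band, where replicate 1 averaged -2.86 in dTAG and -2.97 in control cells at the gene midpoints (ticks) and replicate 2 averaged -1.71 and -1.52.

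The cluster from Vmn2r53 to Vmn2r56 lay on a slope from 1.13 to 2.63 within 0.152 Mb, with all 4 genes above 0 in all 4 profiles. Its means were 1.84 and 1.95 after dTAG, against 1.71 and 1.81 in control cells. Its mean over the 4 profiles, 1.83, was below the all-gene median of 2.55. Vmn2r53 scored 1.17 and 1.21, against 1.09 and 1.04, and Vmn2r56 scored 2.64 and 2.73, against 2.54 and 2.63. Groups did not overlap at 3 of its 4 genes, with differences between 0.11 and 0.15, each below its SE.

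The cluster from Vmn2r57 to Vmn2r126, chr7:41399732-43048106, averaged 1.92 and 2.06 in the dTAG profiles, against 1.65 and 1.65 in the controls. All 8 genes were higher after dTAG in both replicates and 6 had groups without overlap. Its mean difference of 0.34 (0.27 and 0.40 within the replicates) stayed between 0.27 and 0.40 over the alternatives. Its latest gene, Vmn2r59, scored -0.28 and -0.41 after dTAG, against -0.64 and -1.08. Vmn2r126, the earliest of all Vmn2r genes, scored 3.31 and 3.76, against 3.29 and 3.73, a difference of 0.03. Both dTAG profiles lay above both controls over 1200 kb, chr7:41135000-42335000, which began 265 kb before Vmn2r57 and contained 5 of the 8 midpoints. The cluster also holds 9 other protein-coding genes, 5 of them zinc finger (Zfp) genes.

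In the cluster from Vmn2r65 to Vmn2r79, chr7:84940169-87037968, all 15 genes were below 0 in every profile. It shares its span with 15 olfactory receptor genes. The cluster averaged -2.85 and -2.72 after dTAG, against -2.95 and -3.05 in control cells, but its genes went both ways. Vmn2r67 scored -2.08 and -1.59, against -2.81 and -2.67, a difference of 0.90. Vmn2r65, at the start of the cluster, scored -1.91 and -2.30, against -1.75 and -1.20, a difference of -0.63 (SE 0.38), the lowest of the family. Between the replicates Vmn2r65 differed in size, with -0.16 in replicate 1 and -1.10 in replicate 2. Both dTAG profiles lay above both controls at 6 genes of the cluster and below them at Vmn2r65. Its latest gene, Vmn2r76, scored -3.96 and -4.29 after dTAG, against -3.70 and -4.21, and its earliest, Vmn2r79, scored -1.83 and -1.23, against -2.06 and -1.65. At both genes the groups overlapped.

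On chromosomes 10 and 14 the differences were small. The cluster from Vmn2r80 to Vmn2r83 had a mean difference of 0.17, and its groups did not overlap at 2 of its 4 genes. Vmn2r80, its latest gene, scored 0.63 and 0.52 after dTAG, against 0.43 and 0.37 in control cells. Vmn2r83, its earliest, scored 2.89 and 3.16, against 2.91 and 2.87. The cluster from Vmn2r84 to Vmn2r87 had a mean difference of 0.01, of opposite sign in the 2 replicates (0.18 and -0.17). Vmn2r84 scored 1.64 and 1.05 after dTAG, against 1.36 and 1.14, and Vmn2r87 scored 2.29 and 1.92, against 2.19 and 2.12. Vmn2r88, a receptor for haemoglobin, scored -0.21 and -0.83 after dTAG, against -0.50 and -0.83 in control cells. Its neighbour Vmn2r89 scored -0.28 and -0.69, against -0.52 and -0.56. The groups overlapped at Vmn2r84, Vmn2r87, Vmn2r88 and Vmn2r89.

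On chromosome 17 the cluster from Vmn2r90 to Vmn2r110, chr17:17703941-20596259, spanned the widest range of scores of any cluster, 7.35 units over 2.89 Mb. Vmn2r90, at its start, was early, with 3.22 and 3.45 in the dTAG profiles, against 3.06 and 3.27 in the controls. The other 21 genes were below 0 in all 4 profiles. The crossing of 0 lay 341 and 348 kb from the start of the cluster after dTAG, against 324 and 328 kb in control cells, shifts of 16.3 and 19.5 kb, with positions 5 kb apart. Vmn2r105 was on average the latest of the cluster, with -4.03 and -3.94 after dTAG, against -3.64 and -4.78. The cluster averaged -2.86 and -3.01, against -2.86 and -3.25, a difference of 0.12 that was 0.0023 in replicate 1 and 0.24 in replicate 2. Both dTAG profiles lay above both controls at 5 genes and below them at Vmn2r100, which scored -4.30 and -4.22 after dTAG, against -3.89 and -3.82, a difference of -0.41 (SE 0.31). Vmn2r100 and Vmn2r65 were the 2 Vmn2r genes with both dTAG profiles below both controls.

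In the chromosome 17 cluster from Vmn2r111 to Vmn2r117, chr17:22547941-23479597, all 7 genes were above 0 in all 4 profiles. Its means were 1.36 and 1.66 after dTAG, against 1.22 and 1.42 in control cells. Averaged over the 4 profiles its genes lay between 0.94 and 2.27, below the all-gene median of 2.55. The cluster includes the receptors with the best known ligands. Vmn2r116, the ESP1 receptor, scored 1.81 and 2.06 after dTAG, against 1.60 and 1.68. Vmn2r115, the receptor for the juvenile tear peptide ESP22, scored 1.49 and 1.68, against 1.40 and 1.25. Vmn2r117, the earliest, scored 2.32 and 2.39, against 2.13 and 2.24, and Vmn2r114, the latest, scored 0.96 and 1.13, against 0.95 and 0.72. At these 4 neighbours the groups did not overlap, with differences between 0.17 and 0.30 and SEs of 0.31 or 0.32.

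The lone genes Vmn2r118 and Vmn2r120, also on chromosome 17, both scored higher after dTAG on average. Vmn2r118 had 0.91 and 0.85, against 0.69 and 0.23, without overlap. Its difference of 0.42 was 0.19 without control 2 and 0.65 without control 1. Vmn2r120 had -0.20 and -1.32, against -0.90 and -1.54, and its groups overlapped because the dTAG replicates differed by 1.12.

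Other genes of vomeronasal signalling were taken from a list of 78, all of which had a score. None was called by limma with Benjamini-Hochberg adjustment, and none reached an unadjusted p under 0.05. Both dTAG profiles lay above both controls at 7 and below them at 8, next to 10.5% and 8.32% of all genes. Trpc2, the channel that carries the receptor current, scored 4.69 and 4.04 after dTAG, against 4.83 and 4.26 in control cells. Gnao1, the G protein subunit of Vmn2r neurons, scored 2.09 and 1.65, against 1.79 and 1.04. Averaged over the 4 profiles, Trpc2 (4.455) lay above the all-gene median of 2.55 and Gnao1 (1.64) below it. All 5 G protein genes were above 0 in all 4 profiles, as were 68.3% of all genes. Omp, a marker of mature chemosensory neurons, scored 3.38 and 3.06, against 3.31 and 3.11. Tfap2e, the transcription factor of basal vomeronasal neurons, scored 4.33 and 4.53 after dTAG, against 4.81 and 4.92, with both dTAG profiles below both controls.

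Most of the listed ligand genes were late. All 15 Esp genes, which encode the exocrine gland secreted peptides, were below 0 in all 4 profiles, with mean scores between -3.99 and -0.44. Of the 22 Mup genes, which encode the major urinary proteins, 17 were below 0 throughout, as were 25.4% of all genes. The 5 above 0 throughout were Mup4, Mup6, Mup20, Mup3 and Mup21. At 6 of the 22 both dTAG profiles lay below both controls, against 8.32% of all genes. These 6 form runs of neighbours that share smoothed signal, Mup13 to Mup15 and Mup20, Mup3 and Mup21. Mup21 scored 1.19 and 1.08 after dTAG, against 1.77 and 1.83. The 9 non-classical MHC genes of the H2-M family, which a subset of basal vomeronasal neurons expresses together with Vmn2r genes, were all above 0 in all 4 profiles, as were 68.3% of all genes. At 4 of the 9 both dTAG profiles lay above both controls, against 10.5% of all genes. These 4, H2-M9, H2-M1, H2-M10.5 and H2-M10.6, are neighbours and share smoothed signal. H2-M10.6 scored 3.89 and 4.67 after dTAG, against 3.68 and 3.85. The 4 formyl peptide receptor genes of the vomeronasal organ lie next to Vmn2r genes on chromosome 17, and 3 of them were below 0 throughout.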

How the data were processed

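Repli-seq profiles of 4 replicates (8 samples) were used. The authors deposited a signed timing score at every 5 kb, Loess smoothed and quantile normalised, per the file headers and name. The submitters' processing notes name mm10 and the tools Bowtie2, bedtools and SAMtools, without versions, and mapping filters and the score's formula were not found in the sources used here. Smoothing makes neighbouring genes share signal, and the sorted values of dTAG 1 and control 1 agreed to within 5.16e-05. The first replicate of each group has no number in the sample labels, and the column headers call it Rep1.

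Of 526745 positions, 514245 had all 4 scores and 4 with some were left out. Each gene of the RefSeq table (GRCm38.p6) was scored at its midpoint. A linear model with group alone was fitted by limma 3.58.1 (R 4.3.3) to 49214 genes, two-sided with Benjamini-Hochberg adjustment at 0.05. The code was also run on simulated, unsmoothed data with differences far larger than those of the Vmn2r genes. That run cannot show the power of the fit for these data. Named with values were the earliest and latest gene of each cluster of 3 or more, every gene of smaller clusters, the 5 highest and the lowest differences among genes whose groups did not overlap (only 2 genes qualified as lowest), receptors of known ligand, behaviour or family, and genes of a vomeronasal list. Promoter differences were counted as edits with edlib 1.3.9.post1 under Python 3.11.15. The genes and lists were chosen with earlier results of these data known. Alternatives were the replicate block, other variance models, one distribution, centring, other scoring places, protein-coding genes only and leaving out each profile.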

Additional observations from a re-analysis of the deposited data

How the results depend on the processing

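The absence of a called Vmn2r gene held under every alternative run. The samples share replicate numbers, but nothing says that a number marks a shared culture or day, and 2 pairs are too few to settle it. The difference between replicates in dTAG correlated with that in control cells at r = 0.762 over positions. With the replicate block limma called 0 of 49214 genes after Benjamini-Hochberg adjustment, while 4594 genes (9.33%) had an unadjusted p under 0.05, among them 19 Vmn2r genes, 18 of them higher after dTAG. With trended and robust variance and the replicate block 402 genes (0.817%) were called and still no Vmn2r gene, the lowest adjusted p of a Vmn2r gene in that limma fit being 0.0556 at Vmn2r3. Leaving out single profiles gave 0 to 7 called genes, and the 7 came without dTAG 2.

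The count of 44 genes with both dTAG profiles above both controls was 25 on one distribution (12.9% of all genes), 27 with profiles centred over all genes (12.3%), 25 with profiles centred by chromosome (11.6%) and 41 at transcription starts (9.55%). Transcription starts were scored for 115 Vmn2r genes and for 26794 genes in all, so that the 41 were 35.7%. Without single profiles it ranged from 64 to 77, with fewer profiles to separate: 74 without dTAG 1 (18.4% of all genes), 67 without dTAG 2 (45.2%), 64 without control 1 (40.3%) and 77 without control 2 (16.8%). The count of 2 with both below became 4 on one distribution (13.1% of all genes), 4 with either centring (12.1% and 13.3%) and 4 at transcription starts (8.47%). Without single profiles it ranged from 8 to 18: 15 without dTAG 1 (12.4%, against 48.1% of all genes), 11 without dTAG 2 (9.09%, against 13.6%), 18 without control 1 (14.9%, against 13.9%) and 8 without control 2 (6.61%, against 41.3%), so that without control 1 the share was no lower than over all genes. The median difference of 0.18 was 0.19 with centring over all genes, 0.16 at transcription starts, and 0.15 to 0.29 without single profiles, where the all-gene median moved between -0.24 and 0.20. Scoring at transcription starts and counting within replicate numbers were chosen after seeing the data. Below 0 throughout were 71 to 81 genes under all alternatives, the 71 being at transcription starts, where 115 Vmn2r genes had a score. Mean differences of clusters changed sign in 8 of 68 values without single profiles, in 6 of 17 clusters (Vmn2r19, Vmn2r29, Vmn2r84, Vmn2r88, Vmn2r90 and Vmn2r120), and in 1 of 102 values under other settings. Leaving out 1 profile moved the difference by over 1.5 times in 14 of 17 clusters and at 31 of 38 named genes. Joining genes under 0.5 Mb gave 20 clusters, and under 2 Mb gave 15. The cause of these moves was not tested. Depth is unknown, and 2 profiles a group limit every value.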

Other observations

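Vmn2r pseudogenes, which the rule left out, had a similar median timing and a wider spread toward early scores. The 128 scored autosomal pseudogenes had a median score of -1.74, against -1.73 for the genes, and an upper quartile of 2.35, against 0.83. Of the pseudogenes 71 (55.5%) were below 0 in all 4 profiles, against 62.8% of the genes, and 51 (39.8%) were above 0, against 28.1%. Their median difference, dTAG minus control, was 0.087. Both dTAG profiles lay above both controls at 34 of the 128 (26.6%), against 10.5% of all genes, and below them at 9 (7.03%), against 8.32%. The spans of the 18 clusters hold 81 such pseudogenes, which share smoothed signal with the genes beside them.

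The X-linked gene Vmn2r121, also outside the rule, scored -0.81 and 0.12 in the dTAG profiles, against -1.51 and 0.43 in the controls. Its replicates differed in sign in both groups, and the groups overlapped.

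Copies with identical promoters differed in timing in some pairs and lay close in another. Averaged over the 4 profiles, Vmn2r32 and Vmn2r49 scored -2.33 and -3.00, and Vmn2r31 and Vmn2r33 scored -1.19 and -2.53. Vmn2r34 and Vmn2r45 scored -1.97 and -2.84, whereas Vmn2r62 and Vmn2r126 scored 3.51 and 3.52. Vmn2r32 scored -2.99 and -1.52 after dTAG, against -3.15 and -1.66 in control cells, while Vmn2r49 scored -3.59 and -2.47, against -3.72 and -2.24. Vmn2r62, a pair with Vmn2r126 in which both genes are early, scored 3.53 and 3.67, against 3.34 and 3.51. These genes were chosen after their values were seen.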
